A study of Erysimum cheiri and Matthiola incana and Raphanus sativus with 44 samples.

Results

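Petals of the radish Raphanus sativus form DP were compared with petals of form W, with 2 libraries each, called DP1 and DP2 and W1 and W2 here. These are 4 of 44 samples in a series on petal transcriptomes of 10 Brassicaceae species in 22 forms, and they were chosen by the form codes in the sample titles. DP and W flowers came from greenhouse plants and the petals were taken at the half-open stage, and the phenotype label reads violet for DP and also for W. The values go against the violet label of W: early flavonoid genes summed to 4964 and 3839 FPKM in DP1 and DP2, against 0 and 0 in W1 and W2, and late anthocyanin genes to 14855 and 11376 FPKM in DP, against 14.0 and 0 in W. The reason was not tested. The labels do not expand the codes and give no cultivar, genotype or treatment for either form. Another radish form, LP, labelled white-violet, added 2 libraries to the estimate of the spread and is not compared here. The series text calls the libraries of a form biological replicates, but no label ties them to separate plants, so the p-values below measure the spread between these libraries only.

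Anthocyanins, the violet and red pigments of petals, are built from phenylalanine through general phenylpropanoid, early flavonoid and late anthocyanin enzymes, and are then carried into the vacuole. A petal that opens also expands, and this takes up water through aquaporins and loosens the wall through enzymes such as xyloglucan endotransglucosylase/hydrolases (XTH). Transcripts of pollen and carpel genes mark organs other than the petal.

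The values are FPKM (fragments scaled to transcript length and library size) at loci of Arabidopsis thaliana, the reference to which the radish reads were assigned, so a low value can also reflect divergence between the species. Loci whose mean reached 1 FPKM in any of the radish forms were tested with limma on log2(FPKM + 1), with Benjamini-Hochberg adjustment over all 11448 of them. Rose and fell mean that the adjusted p was under 0.05, and every adjusted p below is from this test unless another fit is named. The lowest tested locus averaged 1.01 FPKM in its highest form and the highest untested one 0.999 FPKM. The files give locus identifiers without names, and gene names come from 46 lists of known Arabidopsis genes. Of their 654 loci, each list below is given with the number tested.

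The libraries differed in depth and in organelle content. DP1 and DP2 had 7092 and 8050 loci above 0 FPKM, against 4932 and 4910 in W1 and W2. Low values fall on steps of whole reads, and a single read at the median locus stood for 4.41 and 3.12 FPKM in DP1 and DP2, against 10.4 and 10.3 FPKM in W1 and W2. Relative to W1, the depth behind the FPKM scale was 2.36 and 3.33 in DP1 and DP2 and 1.01 in W2. Plastid and mitochondrial loci held 4.31% and 1.07% of the FPKM of DP1 and DP2, against 74.3% and 4.72% in W1 and W2. The plastid locus ATCG00110 alone held 48.2% of W1 and was listed at 0 in the other 3 libraries. A locus listed at 0 in W can therefore have had transcript below what a single read is worth there, and genes that every cell uses, such as the ubiquitin-conjugating enzyme gene UBC21 in DP1, DP2 and W1, were also listed at 0.

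**Figure D1:**
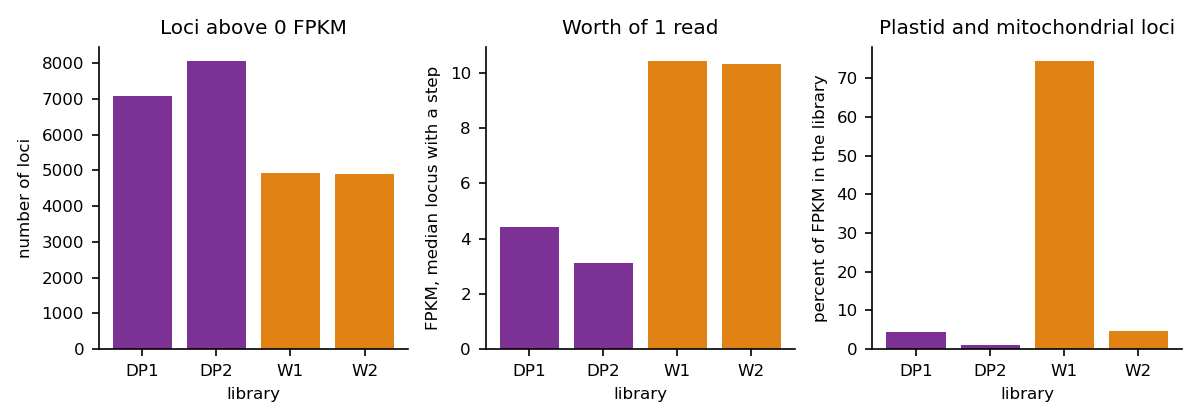
Number of loci above 0 FPKM, worth of 1 read in FPKM at the median locus with a read step, and percent of FPKM at plastid and mitochondrial loci, each as 1 bar per library (DP purple, W orange). The DP bars stand at 7092 and 8050 loci against 4932 and 4910 for W, and W1 alone reaches 74.3% organelle FPKM.

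DP and W petals differed at 1232 of 11448 tested loci (10.8%), of which 809 rose in DP (7.07%) and 423 fell (3.69%). An unadjusted p under 0.05 was reached by 2644 loci. Neither W library had a value above 0 at 663 of the rises (82.0%), and neither DP library had one at 204 of the falls (48.2%). Where a read step was known, 41 of 158 such rises had a DP mean above the worth of 3 reads in a W library, against 70 of 79 such falls with a W mean above 3 reads in a DP library. The 95th percentile of the worth of 3 reads was 76.3 FPKM in W and 27.7 FPKM in DP. With or without a step, 603 of the 663 rises at 0 in W had a DP mean at or below 76.3 FPKM. Of the 204 falls at 0 in DP, 107 had a W mean above 27.7 FPKM. Among the 2592 loci above 0 in all 4 libraries, 141 rose and 181 fell, with a median log2 difference of -0.03, whereas the median over all tested loci was 0.86. Both DP libraries lay above both W libraries at 25.6% of the tested loci and below them at 13.2%. A locus that is high in a single form passes the filter through that form, so the counts of list members below describe the lists and are read beside these shares. The median of 0.86 over all tested loci leans to DP, so counts of members with the higher mean in DP are read beside that lean.

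The balance of rises and falls differed between settings. With quantile scaling 335 loci rose and 305 fell, with a median of 0.29, and on recovered whole reads limma voom called 216 rises and 712 falls, with a median of -0.52, in another model and over only the 4565 loci with a read step. List medians are therefore given beside the median of all tested loci. Under voom the medians of the XTH, petal identity, light signalling, jasmonate, Calvin cycle and chlorophyll synthesis lists were below 0. Where both libraries of a form were listed at 0, a fit without 1 of them still had that form at 0. A call kept in such a fit does not test the depth behind the zeros.

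Most tested genes of the anthocyanin pathway were higher in DP petals, and most were listed at 0 in W. Of 5 early flavonoid genes, all tested, 4 rose, and of 11 late anthocyanin genes 10 were tested and 8 rose; none fell in either list. CHS, chalcone synthase, which opens flavonoid synthesis, had 3333 and 2738 FPKM in DP1 and DP2, against 0 and 0 in W1 and W2 (adjusted p = 0.00169). CHIL, a chalcone isomerase-like protein that aids this step, had 537 and 326 FPKM in DP, against 0 and 0 in W (adjusted p = 0.00696). F3H, flavanone 3-hydroxylase, had 1009 and 697 FPKM in DP, against 0 and 0 in W (adjusted p = 0.00443). These genes were present in each DP library at levels far above the worth of single W reads. F3PRIMEH, the flavonoid 3'-hydroxylase, had 75.8 and 77.5 FPKM in DP, from 18 and 26 recovered reads, and no read in W (adjusted p = 0.0237). Its listed DP mean was 2.58-fold higher than W when W is set at 3 reads in a library. CHI, chalcone isomerase itself, had 9.48 and 0 FPKM in DP, against 0 and 0 in W, without a call (adjusted p = 0.593).

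Late anthocyanin genes were also abundant in DP. DFR, dihydroflavonol reductase, had 3086 and 2434 FPKM in DP, from 518 and 578 recovered reads, against 14.0 and 0 FPKM in W, from 1 read and none (adjusted p = 0.0313). LDOX, anthocyanidin synthase, had 3442 and 2820 FPKM in DP, against 0 and 0 in W (adjusted p = 0.00169). The locus next to it in number, AT4G22870, had 2107 and 1976 FPKM in DP, against 0 and 0 in W (adjusted p = 0.00169), and reads of near-identical copies could be split between the pair. TT19, a glutathione S-transferase needed to bring anthocyanin to the vacuole, had 5997 and 3972 FPKM in DP, against 0 and 0 in W (adjusted p = 0.00169). The enzymes that decorate anthocyanidins were lower. UGT79B1, which adds xylose, had 48.1 and 68.1 FPKM in DP, against 0 and 0 in W (adjusted p = 0.0164, 1.54-fold higher with W at 3 reads). SCPL10, a sinapoyltransferase of the serine carboxypeptidase family, had 58.0 and 33.6 FPKM in DP, against 0 and 0 in W (adjusted p = 0.0175, 1.23-fold higher with W at 3 reads). The coumaroyltransferase gene 3AT2 had 44.4 and 22.0 FPKM in DP, and the glucosyltransferase gene UGT75C1 had 38.1 and 10.1 FPKM, both against 0 and 0 in W (adjusted p = 0.0242 and 0.0426). The malonyltransferase gene 5MAT had 30.0 and 38.2 FPKM in DP, against 0 and 0 in W, without a call (adjusted p = 0.0833).

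The flavonol branch shared part of this pattern. Of 8 genes 5 were tested and 2 rose. FLS1, flavonol synthase, had 172 and 126 FPKM in DP, against 14.4 and 14.4 in W, where each value is 1 read, and was 10.4-fold higher on the means (adjusted p = 0.0259). The glucosyltransferase gene UGT78D2, which acts on flavonols and anthocyanidins, had 104 and 88.6 FPKM in DP, against 0 and 0 in W (adjusted p = 0.0300). In fits that left out 1 library, CHS, CHIL, F3H, LDOX, AT4G22870, TT19, UGT79B1, SCPL10 and 3AT2 kept their calls. DFR lost its call without DP1, without DP2 or without W2 (adjusted p up to 0.145), F3PRIMEH and UGT78D2 without any 1 of the 4 libraries (up to 0.0686 and 0.112), UGT75C1 without W1 or W2 (up to 0.108) and with quantile scaling (0.0776), and FLS1 without W2 (0.0507).

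**Figure D2:**
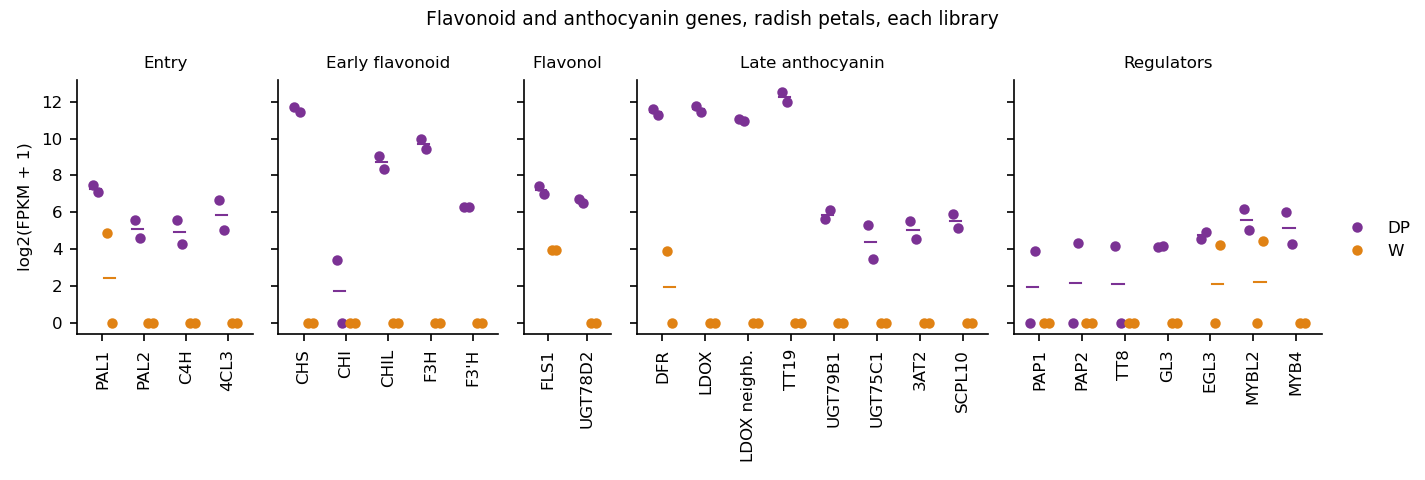
log2(FPKM + 1) of flavonoid and anthocyanin genes and their regulators in each library, with DP in purple left of W in orange and short lines at form means. CHS, F3H, LDOX and TT19 lie between 697 and 5997 FPKM in DP, and W points at the bottom are listed at 0.

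Regulators of the pathway were read at low levels. Activation of the late genes needs a MYB factor, a bHLH factor and the WD40 protein TTG1, and small MYB proteins work against them. Of 8 activators 7 were tested and 1 rose, and of 9 repressors 6 were tested and 3 rose. The bHLH gene GL3 had 15.9 and 16.9 FPKM in DP, from 4 and 6 reads, against 0 and 0 in W (adjusted p = 0.0259). The bHLH gene EGL3 had 22.5 and 29.2 FPKM in DP, against 0 and 17.55 in W, so the forms did not overlap, and it was not called (adjusted p = 0.495). The MYB genes PAP1 and PAP2 had 0 and 13.7 FPKM and 0 and 18.7 FPKM in DP1 and DP2, all against 0 and 0 in W (adjusted p = 0.483 and 0.535). TT8, the bHLH partner in seed coats, had 16.9 and 0 FPKM in DP, against 0 and 0 in W, and TTG1 had 0 and 3.95 FPKM in DP, against 0 and 0 in W (adjusted p = 0.483 and 0.484). Among repressors, MYB4 had 63.5 and 18.0 FPKM in DP, SPL9 15.9 and 22.5 FPKM and TRY 15.6 and 11.1 FPKM, each against 0 and 0 in W (adjusted p = 0.0294, 0.0257 and 0.0300). MYBL2 had 70.4 and 31.2 FPKM in DP, against 0 and 20.5 in W (adjusted p = 0.335). LBD39 went the other way, with 8.70 and 0 FPKM in DP, against 81.6 and 20.3 in W, without a call (adjusted p = 0.200). Of the 6 tested repressors 4 had the higher mean in DP and 2 the lower. The DP means of GL3, MYB4 and SPL9 were below the worth of 3 reads in a W library, which was 28.1, 89.5 and 37.4 FPKM. TRY had no read step, and 1 read at the median locus was worth 10.4 and 10.3 FPKM in W1 and W2. MYB4 lost its call without W1 or W2 (adjusted p up to 0.0775), and TRY with quantile scaling (0.0581).

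Upstream and side branches of phenylpropanoid synthesis were higher in DP at a few loci. Of 8 entry genes 7 were tested, 2 rose, 0 fell and all 7 had the higher mean in DP. PAL2, a phenylalanine ammonia-lyase, had 47.5 and 23.1 FPKM in DP, against 0 and 0 in W, and was 1.69-fold higher with W at 3 reads (adjusted p = 0.0277). The coumarate ligase gene 4CL3 had 100.5 and 31.3 FPKM in DP, against 0 and 0 in W (adjusted p = 0.0257). PAL1 had 174 and 134 FPKM in DP, against 27.9 and 0 in W, without a call (adjusted p = 0.173). All 3 sets of DP values lay above the W values. Of 17 lignin and sinapate genes 14 were tested, 5 rose and 1 fell. CCOAOMT1, a caffeoyl-CoA methyltransferase, stood out with 699 and 555 FPKM in DP, against 0 and 0 in W (adjusted p = 0.00545). CAD5, an alcohol dehydrogenase of lignin synthesis, had 56.4 and 31.0 FPKM in DP, against 0 and 0 in W (adjusted p = 0.0175). The other rises, SNG1, UGT84A1 and UGT84A2 of sinapate ester synthesis, had 6.20 to 22.5 FPKM in the DP libraries, against 0 in both W libraries (adjusted p = 0.0301, 0.0276 and 0.0419). SNG1 rests on 3 and 3 reads in DP, and its DP mean was below the worth of 3 reads in a W library (36.5 FPKM). HCT, which routes coumarate into lignin, fell, with 0 and 0 FPKM in DP, against 10.6 and 10.6 in W (adjusted p = 0.0314). It had no read step, and 1 read at the median locus was worth 10.4 and 10.3 FPKM in W1 and W2. PAL2 lost its call without DP1, W1 or W2 (adjusted p up to 0.0662), and 4CL3 without W1 or W2 (up to 0.0583). With quantile scaling PAL2, UGT84A1, UGT84A2, SNG1 and HCT were not called (adjusted p = 0.0502, 0.0558, 0.198, 0.0565 and 0.0578). None of 14 tested shikimate and phenylalanine genes, of 17, was called.

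Carotenoid genes were mostly not called. Of 14 synthesis genes 13 were tested, 1 rose and 10 had the higher mean in DP. ZDS, a desaturase on the way to lycopene, had 1646 and 1254 FPKM in DP, against 117 and 259.9 in W, and was 7.69-fold higher (adjusted p = 0.0262). PSY, the first committed enzyme, had 76.9 and 115 FPKM in DP, against 10.7 and 0 in W (adjusted p = 0.0956), and ZEP, zeaxanthin epoxidase, 133 and 101 FPKM, against 7.45 and 0 in W (adjusted p = 0.0543). The forms did not overlap at these loci. CCD1, a dioxygenase that cleaves carotenoids into volatiles, rose, with 588 and 467 FPKM in DP, from 139 and 156 reads, against 39.9 and 29.7 FPKM in W, from 4 and 3 reads (15.2-fold, adjusted p = 0.0126). CCD1 was the only call among 4 tested genes of carotenoid cleavage and storage, of 6, and it stayed called in all 15 alternative fits. ZDS lost its call without DP1 or DP2 (adjusted p up to 0.0994). The plastid isoprenoid list that feeds this pathway had 0 calls among 10 tested genes, 8 of them higher in DP, among them DXS with 61.4 and 79.4 FPKM in DP, against 6.31 and 0 in W (adjusted p = 0.0691).

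Aquaporin transcripts, whose products let water through the plasma membrane (PIP) and the vacuole membrane (TIP), were among the most abundant in DP petals and were several-fold lower in W. Of 18 genes 17 were tested, 10 rose and 0 fell, and all 17 had the higher mean in DP. The median log2 difference was 3.28, against 0.86 over all tested loci. PIP1;2 had 44226 and 32824 FPKM in DP, against 8109 and 5673 in W, 5.59-fold higher (log2 difference 2.49 ± 0.26 SE, adjusted p = 0.0173). PIP2;7 had 41839 and 33180 FPKM in DP, against 3014 and 1683 in W, 15.97-fold higher (log2 difference 4.05 ± 0.32 SE, adjusted p = 0.0126). These genes ranked among the 5 highest nuclear loci in DP. PIP2;1 had 813 and 580.4 FPKM in DP, from 127 and 128 reads, against 15.1 and 14.97 FPKM in W, from 1 read each, 46.4-fold higher (log2 difference 5.43 ± 0.33 SE, adjusted p = 0.00702). PIP2;4 had 1159 and 867 FPKM in DP, from 158 and 167 reads, against 86.1 and 51.4 FPKM in W, from 5 and 3 reads (14.7-fold, adjusted p = 0.0201). PIP1;3 had 256 and 181 FPKM in DP, against 30.1 and 14.95 in W (9.70-fold, adjusted p = 0.0303). The vacuolar TIP2;1 had 1908 and 1553 FPKM in DP, against 189 and 85.4 in W (12.6-fold, adjusted p = 0.0224), and TIP1;2 had 12147 and 9635 FPKM in DP, against 4848 and 3773 in W (2.53-fold, adjusted p = 0.0225).

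PIP1;1 differed less, with 1146 and 1032 FPKM in DP, against 685 and 727 in W, without a call (adjusted p = 0.0722). PIP2;3, PIP2;8 and PIP1;5 also rose, at 21.1 to 51.1 FPKM in the DP libraries and 0 in both W libraries, and their DP means were below the worth of 3 reads in a W library (51.4, 50.7 and 52.4 FPKM). PIP2;2, a close copy of PIP2;3 with which reads could be shared, had 51.1 and 62.1 FPKM in DP, against 0 and 0 in W (adjusted p = 0.141). The forms overlapped at PIP2;6 alone. The whole list held 13.5% and 11.6% of the nuclear FPKM of DP1 and DP2, against 2.49% and 1.98% in W1 and W2. With quantile scaling 10 of the 17 rose and 0 fell, after removal of organelle loci with equalised nuclear totals 10 and 0, and under voom 5 of 12 and 0. PIP2;1 and PIP2;7 kept their calls without any 1 library, PIP1;2 lost its call without DP1 (adjusted p = 0.0529), TIP2;1 without DP1 or DP2 (up to 0.0758), TIP1;2 without DP1 or W2 (up to 0.0796), PIP2;8 without DP2, W1 or W2 (up to 0.0637), and PIP1;3 and PIP2;4 without DP1, DP2 or W2 (up to 0.0817 and 0.0584), so that the list had 5 rises without DP1, 8 without DP2, 10 without W1 and 6 without W2.

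Wall-loosening genes of the XTH family rose in part. Of 22 genes 19 were tested, 7 rose and 0 fell. XTH6 had 1993 and 1498 FPKM in DP, against 0 and 0 in W (adjusted p = 0.00353), and XTH7 had 325 and 235 FPKM in DP, against 0 and 0 in W (adjusted p = 0.0112). XTH4, XTH17 and XTH20 had 28.8 to 77.2 FPKM in the DP libraries and 0 in both W libraries (adjusted p = 0.0160, 0.0206 and 0.0193). They had no read step. Their DP means of 65.8, 30.7 and 52.3 FPKM were below 76.3 FPKM, the 95th percentile of the worth of 3 reads in W. XTH27 had 1108 and 879.5 FPKM in DP, against 137 and 205 in W (5.81-fold, adjusted p = 0.0337). The most abundant member, XTH24, had 17409 and 16769 FPKM in DP, against 11572 and 12965 in W, and rose by a log2 difference of only 0.48 ± 0.10 SE (adjusted p = 0.0498). The forms overlapped at XTH22, with 31.8 and 33.8 FPKM in DP, against 74.8 and 18.6 in W (adjusted p = 0.945). Calls of XTH6, XTH7, XTH4, XTH17 and XTH20 held without any 1 library, while XTH24 and XTH27 lost theirs without any 1 of the 4 (adjusted p up to 0.311 and 0.133) and with quantile scaling (0.487 and 0.0513). Under voom, which could place 5 members, 0 rose and 1 fell.

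Expansins, another group of wall-loosening proteins, did not move together: of 11 tested, EXPA1 rose, EXPA11 fell and 9 were not called. EXPA1 had 21.9 and 10.3 FPKM in DP, against 0 and 0 in W (adjusted p = 0.0420), and EXPA11 had 14.7 and 15.6 FPKM in DP, against 86.4 and 51.6 in W (adjusted p = 0.0426). EXPA1 rests on 3 and 2 reads in DP, with a DP mean below the worth of 3 reads in a W library (51.4 FPKM). With quantile scaling neither was called (adjusted p = 0.0617 for EXPA1 and 0.0525 for EXPA11). EXPA1 lost its call without any 1 library (adjusted p up to 0.0994) and EXPA11 without DP1 or DP2 (up to 0.0925).

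Cuticular wax genes were higher in DP at a few abundant loci. Of 15 genes 13 were tested, 2 rose and 12 had the higher mean in DP. CER1, which makes wax alkanes, had 9277 and 8003 FPKM in DP, against 279 and 121 in W, 43.3-fold higher (log2 difference 5.54 ± 0.41 SE, adjusted p = 0.0114). KCS1, a fatty acid elongase, had 203 and 187 FPKM in DP, from 50 and 65 reads, against 28.7 and 38.0 FPKM in W, from 3 and 4 reads (5.84-fold, adjusted p = 0.0302). CER5, a wax exporter of the plasma membrane, had 562 and 312 FPKM in DP, against 30.4 and 82.8 in W, with no overlap, and was not called (adjusted p = 0.0528). CER1 stayed called in the 13 alternative fits that could test it, and KCS1 lost its call without W1 (adjusted p = 0.0505). Of 17 genes for cutin and petal cell ridges 11 were tested and 2 rose, of which the exporter ABCG11 had 174 and 94.1 FPKM in DP, against 5.72 and 17.0 in W, 11.8-fold higher (adjusted p = 0.0441; up to 0.134 without DP1, DP2 or W1). GPAT8, an acyltransferase of cutin synthesis, had 12.4 and 5.83 FPKM in DP, against 0 and 0 in W (adjusted p = 0.0469; up to 0.0753 without W1 or W2). Among lipid transfer protein genes, 5 tested of 8, LTP2 rose, with 29.6 and 21.0 FPKM in DP, against 0 and 0 in W (adjusted p = 0.0253; up to 0.0552 without W1 or W2). LTP3 fell, with 14.4 and 10.3 FPKM in DP, against 67.3 and 101 in W (adjusted p = 0.0329; up to 0.0579 without DP2 or W2). With quantile scaling neither ABCG11 nor GPAT8 was called (adjusted p = 0.0524 and 0.259). Reads of LTP3 and its close copy LTP4 could be split.

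**Figure D3:**
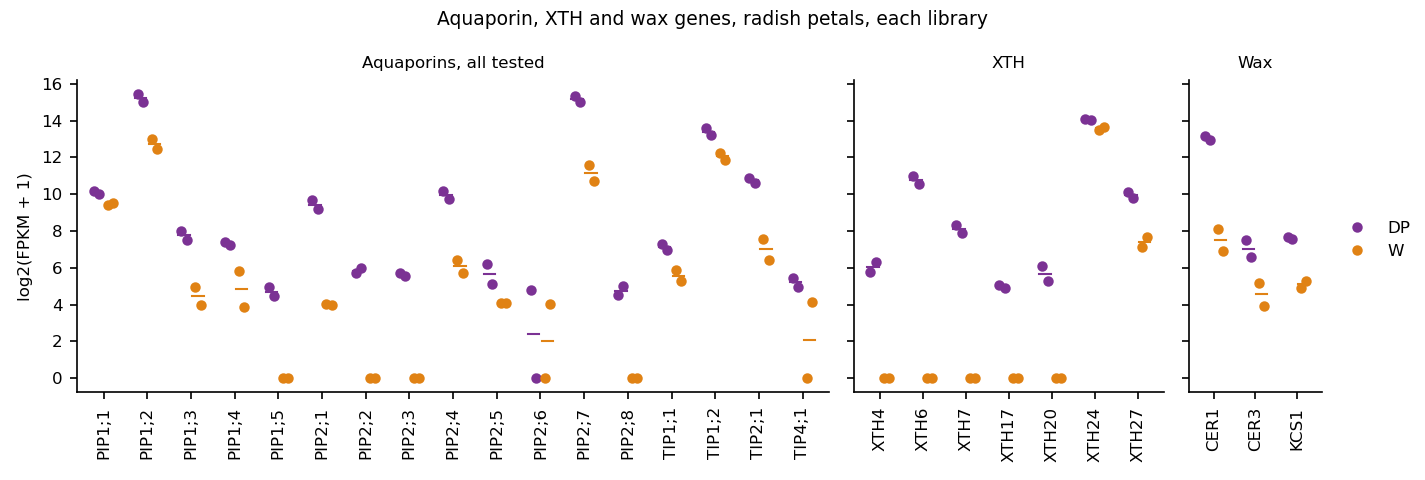
log2(FPKM + 1) of all 17 tested aquaporin genes, of the 7 XTH genes that rose and of 3 wax genes in each library (DP purple, left; W orange, right; short lines are form means). PIP1;2 lies at 44226 and 32824 FPKM in DP against 8109 and 5673 FPKM in W, and CER1 at 9277 and 8003 FPKM in DP against 279 and 121 FPKM in W.

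Petal identity genes such as AP3 and PI were present in both forms, and some markers of other floral organs differed between them. AP3, a B-class gene that defines petals with PI, had 553 and 819 FPKM in DP, against 349 and 386 in W, without a call (adjusted p = 0.130). PI had 903 and 749 FPKM in DP, against 90.6 and 126 in W (7.62-fold, adjusted p = 0.0180). AP1, an A-class gene, had 611 and 766 FPKM in DP, against 189 and 204 in W (3.50-fold, adjusted p = 0.0216). These genes were above 0 in all 4 libraries. SEP3, a cofactor of the floral organ genes, had 4261 and 4303 FPKM in DP, against 2041 and 2138 in W (2.05-fold, adjusted p = 0.0220), and SEP1 had 126 and 130 FPKM in DP, against 40.5 and 26.8 in W (3.80-fold, adjusted p = 0.0492). AP2, which keeps the carpel gene AG out of the outer whorls, fell, with 143 and 152 FPKM in DP, against 360.5 and 637 in W (log2 difference -1.69 ± 0.34 SE, adjusted p = 0.0472). The forms overlapped at SEP2, with 56.8 and 20.1 FPKM in DP, against 40.1 and 39.8 in W, without a call (adjusted p = 0.917). Of 9 petal identity genes, all tested, 4 thus rose and 1 fell, and 3 had the lower mean in DP. The median log2 difference was 1.04, against 0.86 over all tested loci. With quantile scaling, and with organelle loci removed and nuclear totals equalised, 2 rose and 0 fell, and SEP1, SEP3 and AP2 were not called. SEP1 and AP2 also lost their calls without DP1 or DP2 (adjusted p up to 0.0707 and 0.160), and SEP3 without any 1 library (up to 0.0727).

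Some pollen genes were far lower in DP than in W. Of 23 genes 19 were tested, 0 rose and 9 fell, 2 had the higher mean in DP, with a median log2 difference of -5.31 against 0.86 over all tested loci. ACT4, an actin of pollen and other reproductive tissue, had 10.3 and 3.63 FPKM in DP, against 2393 and 2940 in W, with a log2 difference of -8.52 ± 0.50 SE (adjusted p = 0.00696). The related ACT12, with which reads could be split, had 0 and 23.4 FPKM in DP, against 635 and 760 in W, without a call (adjusted p = 0.0576). VGD1, a pectin methylesterase of the pollen tube, had 78.6 and 138 FPKM in DP, against 4469 and 3872 in W (log2 difference -5.31 ± 0.30 SE, adjusted p = 0.00696). The gaps at these genes were wider than the spread between the libraries of either form. PRF4, a pollen profilin, had 0 and 0 FPKM in DP, against 191 and 319 in W (adjusted p = 0.00696). AGP11, an arabinogalactan protein of pollen, had 0 and 0 FPKM in DP, against 117 and 58.5 in W, from 4 and 2 reads (adjusted p = 0.0167). It was 2.75-fold lower in DP with DP at 3 reads in a library. ACA9, a calcium pump of pollen, fell least, with 219.5 and 153 FPKM in DP, against 1189 and 925 in W (log2 difference -2.51 ± 0.26 SE, adjusted p = 0.0175).

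The other falls of the pollen list were PPME1, VGDH1, ADF7 and ADF10, with 0 to 10.4 FPKM in the DP libraries, against 29.4 to 322 FPKM in the W libraries. Summed over the whole list, DP1 and DP2 held 320 and 387 FPKM, against 10014 and 10300 in W1 and W2, or 0.0416% and 0.0558% of nuclear FPKM, against 1.46% and 1.68%. ACT4, VGD1, PRF4, AGP11 and ACA9 kept their calls without any 1 library, whereas VGDH1 and PPME1 lost theirs without W1 or W2 (adjusted p up to 0.172 and 0.105) and ADF7 and ADF10 without DP1 or DP2 (up to 0.0762 and 0.0969). VGDH1 was also not called with quantile scaling (adjusted p = 0.0558). Fewer cells of a type and less RNA per cell cannot be told apart in these whole-petal samples, and the part of pollen RNA in the other differences between DP and W was not tested.

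Carpel and ovule genes were listed at 0 in both DP libraries at all 7 loci of the list. Of the 5 tested, 2 fell. SHP1, a MADS-box gene of carpel and fruit, had 0 and 0 FPKM in DP, against 33.1 and 16.4 in W (adjusted p = 0.0267). AG, the carpel and stamen identity gene, had 0 and 0 FPKM in DP, against 12.2 and 12.1 in W, which is 1 read in each W library (adjusted p = 0.0416). SHP2 had 0 and 0 FPKM in DP, against 226 and 0 in W, so W1 alone held it (adjusted p = 0.483). CRC and INO, of carpel and ovule, were at or below the filter in every form. AG lost its call without any 1 library (adjusted p up to 0.0864). With quantile scaling the list had 0 calls (adjusted p = 0.0522 for SHP1 and 0.0641 for AG). Tapetum genes, which act in the anther wall, were nearly absent: 23 of 25 were not tested, and the list summed to 7.29 and 20.7 FPKM in DP, against 0 and 0 in W. All of it came from TKPR1, a reductase of pollen wall synthesis, which rose with 7.29 and 20.7 FPKM in DP, against 0 and 0 in W, from 1 and 4 reads in DP and a mean below the worth of 3 reads in a W library, 51.4 FPKM (adjusted p = 0.0457; up to 0.108 without DP2, W1 or W2; 0.181 with quantile scaling).

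**Figure D4:**
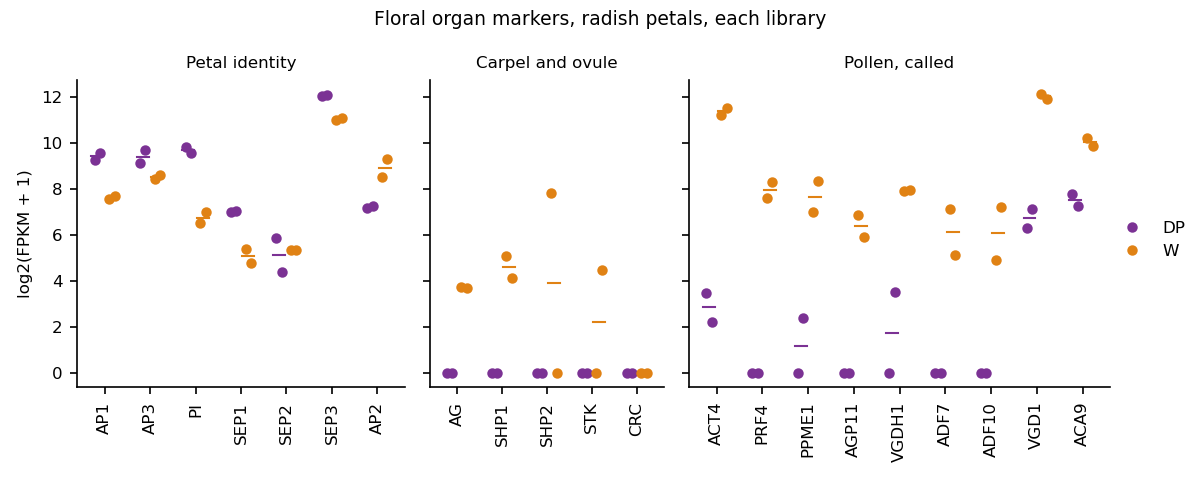
log2(FPKM + 1) of petal identity genes, carpel and ovule genes and the 9 called pollen genes in each library (DP purple, left; W orange, right; short lines are form means). AP3 and SEP3 are present in all 4 libraries, the carpel genes are at 0 in both DP libraries, and ACT4 lies at 10.3 and 3.63 FPKM in DP against 2393 and 2940 FPKM in W.

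Nuclear genes of photosynthesis leaned to DP without many calls. Of 40 photosystem and antenna genes 39 were tested and 34 had the higher mean in DP. Both DP libraries lay above both W libraries at 28 of them, and at 25.6% of all tested loci. But 1 rose, below the background of 7.07%. The median log2 difference was 1.81, against 0.86 over all tested loci. LHCA2, an antenna protein of photosystem I, had 731 and 761 FPKM in DP, against 161 and 142 in W (4.92-fold, adjusted p = 0.0175). PSBS, which dissipates excess light energy, had 402 and 342 FPKM in DP, against 170.0 and 132 in W, without a call (adjusted p = 0.0529). LHCA4 had 576 and 633 FPKM in DP, against 183 and 45.4 in W (adjusted p = 0.0848). The count of rises was 4 without DP1, 2 without DP2, 10 without W1 and 5 without W2. Of 14 Calvin cycle genes, all tested, 2 rose: RCA, rubisco activase, had 2502 and 2965 FPKM in DP, against 348 and 523 in W (6.27-fold, adjusted p = 0.0259; up to 0.117 without any 1 library). RBCS1B, a small subunit of rubisco whose reads could be split with close copies, had 11.4 and 8.08 FPKM in DP, 1 read each, against 0 and 0 in W (adjusted p = 0.0348), a mean below the worth of 3 reads in a W library (80.2 FPKM), and its direction turned under voom. With quantile scaling RBCS1B was not called (adjusted p = 0.0673).

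Chlorophyll lists had single calls. CHLG, which adds the phytol tail, was the 1 rise among 8 tested synthesis genes of 9, with 19.9 and 7.05 FPKM in DP, against 0 and 0 in W (adjusted p = 0.0461; up to 0.0955 without W1 or W2; 0.188 with quantile scaling). HCAR, a reductase of chlorophyll turnover, was the 1 fall among 8 tested breakdown genes, with 4.89 and 0 FPKM in DP, from 1 read and none, against 104 and 68.7 in W, from 9 and 6 reads (adjusted p = 0.0441; up to 0.158 without W1 or W2). NYC1, a chlorophyll b reductase, had 573 and 1211 FPKM in DP, against 1734 and 4869 in W, without a call (adjusted p = 0.171).

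A few genes linked with ageing and with methionine and metal metabolism fell in DP. SAG21, a senescence-associated gene, had 84.4 and 59.9 FPKM in DP, against 491 and 688 in W (log2 difference -3.01 ± 0.35 SE, adjusted p = 0.0195). SEN1, induced in dark and senescence, had 0 and 0 FPKM in DP, against 70.4 and 46.8 in W (adjusted p = 0.0175). These were the 2 falls among 6 tested senescence genes of 9, with no rise, and both kept their calls without any 1 library. SEN1 had no read step, so the reads behind its values are unknown. MT1A, a metallothionein that binds metals, had 2389.7 and 1955 FPKM in DP, against 5080.0 and 6152 in W (log2 difference -1.37 ± 0.25 SE, adjusted p = 0.0392; up to 0.0737 without W1 or W2; 0.119 with quantile scaling). MT2B, the other abundant metallothionein, had 1202 and 1883 FPKM in DP, against 4479.9 and 11096 in W, without a call (adjusted p = 0.0591). In the methyl cycle, the methionine synthase gene AT5G17920 had 433 and 471 FPKM in DP, against 1225 and 1267 in W (log2 difference -1.46 ± 0.15 SE, adjusted p = 0.0173). MAT3, an S-adenosylmethionine synthetase, had 0 and 0 FPKM in DP, against 10.9 and 21.7 in W (adjusted p = 0.0315; 0.0586 with quantile scaling). It had no read step, and 1 read at the median locus was worth 10.4 and 10.3 FPKM in W1 and W2. SAM2, another such synthetase, had 290 and 285 FPKM in DP, against 318 and 332 in W, a log2 difference of -0.18 (adjusted p = 0.609). The list of 6, all tested, thus had 2 falls and 0 rises.

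Transporters of sugar and of the vacuole moved in both directions. Of 16 sugar genes, all tested, 1 rose and 3 fell. SUC1, a sucrose carrier, had 440.2 and 295 FPKM in DP, from 111 and 105 reads, against 9.36 and 37.1 FPKM in W, from 1 and 4 reads (15.8-fold, adjusted p = 0.0396; up to 0.162 without DP1, DP2 or W1). SWEET9, the sugar exporter of nectaries, had 0 and 0 FPKM in DP, against 108 and 85.8 in W, from 5 and 4 reads (adjusted p = 0.0118). It was 4.13-fold lower in DP with DP at 3 reads. The nectary invertase gene CWINV4 had 0 and 0 FPKM in DP, against 17.3 and 8.57 in W, from 2 and 1 reads (adjusted p = 0.0370). CWINV4 lost its call without DP1 or DP2. The hexose carrier gene STP13 had 0 and 0 FPKM in DP, against 9.06 and 18.0 in W (adjusted p = 0.0345). STP13 had no read step, and 1 read at the median locus was worth 10.4 and 10.3 FPKM in W1 and W2. SWEET9 and STP13 kept their calls without any 1 library. Both genes were at 0 in DP in each of these fits, which therefore do not test the depth of DP. With quantile scaling 0 sugar genes rose and SWEET9 alone fell (adjusted p = 0.0511 for SUC1, 0.0607 for STP13 and 0.0631 for CWINV4). SWEET4 had 1055 and 790 FPKM in DP, against 673 and 631 in W, without a call (adjusted p = 0.213). Of 12 vacuolar transport genes, all tested, ABCC2 rose and AVP1 fell. AVP1, the proton pump that energises the vacuole with pyrophosphate, had 118 and 197 FPKM in DP, against 1271 and 1591 in W (log2 difference -3.21 ± 0.31 SE, adjusted p = 0.0164), and kept its call in the 13 alternative fits that could test it. ABCC2, a carrier of conjugates into the vacuole, had 197 and 135 FPKM in DP, against 31.6 and 31.3 in W (5.29-fold, adjusted p = 0.0423; up to 0.0900 without DP1, W1 or W2; 0.0513 with quantile scaling).

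A few clock and light signalling genes differed, in both directions. Of 20 clock genes 16 were tested, 2 rose and 2 fell. TOC1, an evening gene in Arabidopsis, had 0 and 0 FPKM in DP, against 38.9 and 83.6 in W, from 6 and 13 reads (adjusted p = 0.0185). It was 8.70-fold lower in DP with DP at 3 reads. GRP7, a clock-controlled RNA-binding protein gene, had 0 and 0 FPKM in DP, against 27.7 and 166 in W (adjusted p = 0.0303; up to 0.116 without DP1 or DP2). RVE4, a morning MYB-like gene, had 170 and 97.4 FPKM in DP, against 0 and 0 in W (adjusted p = 0.0186), and lost its call without W2. LNK1, its coactivator, had 27.4 and 18.3 FPKM in DP, from 18 and 17 reads, against 0 and 0 in W (adjusted p = 0.0459). LNK1 was 2.13-fold higher with W at 3 reads. It lost its call without any 1 library and with quantile scaling (adjusted p = 0.111). CCA1, the morning MYB-like gene of the core clock, had 16.6 and 2.90 FPKM in DP, against 0 and 0 in W, and PRR7 had 10.5 and 3.70 FPKM in DP, against 61.8 and 49.0 in W; neither was called (adjusted p = 0.124 and 0.0883). The hour of sampling is not in the labels. Of 20 light signalling genes 16 were tested, 2 rose and 1 fell. BBX25, a B-box protein gene, had 89.6 and 101 FPKM in DP, and BBX22 had 12.8 and 13.6 FPKM, both against 0 and 0 in W (adjusted p = 0.0139 and 0.0284). BBX22 had no read step, and 1 read at the median locus was worth 10.4 and 10.3 FPKM in W1 and W2. UVR8, the ultraviolet-B receptor, fell, with 14.4 and 7.63 FPKM in DP, against 67.8 and 58.9 in W (adjusted p = 0.0445; up to 0.0932 without W1 or W2). With quantile scaling BBX22 and UVR8 were not called (adjusted p = 0.0565 and 0.0607).

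A few genes of the jasmonate and gibberellin-related lists rose. Of 36 jasmonate genes 26 were tested, 3 rose, 0 fell, 19 had the higher mean in DP and 4 the lower. Over all tested loci 7.07% rose and 3.69% fell, and the list median was 1.15, against 0.86 over all tested loci. These counts do not mark out the jasmonate list. MYB57, which with related MYB factors acts in jasmonate control of stamen and petal growth, had 860.0 and 811 FPKM in DP, against 24.9 and 12.3 in W, 44.9-fold higher (log2 difference 5.49 ± 0.42 SE, adjusted p = 0.0118). The repressor gene JAZ1 had 134 and 95.2 FPKM in DP, against 0 and 0 in W (adjusted p = 0.0138), and its adaptor gene NINJA had 17.44 and 12.3 FPKM in DP, against 0 and 0 in W (adjusted p = 0.0284). MYC2, the main jasmonate bHLH gene, had 6.96 and 9.85 FPKM in DP, against 0 and 0 in W, without a call (adjusted p = 0.0826). GASA1, a gibberellin-regulated peptide gene, had 393 and 255 FPKM in DP, against 0 and 0 in W (adjusted p = 0.0112), and GASA6 had 15.3 and 10.9 FPKM in DP, against 0 and 0 in W (adjusted p = 0.0301); they were the calls among 5 tested genes of 10. RCI2B, a small cold-induced membrane protein gene, had 3123 and 2263 FPKM in DP, against 94.6 and 98.2 in W, 27.9-fold higher (adjusted p = 0.0173; up to 0.0557 without DP1, W1 or W2), and was the single call of 7 tested cold and dehydration genes of 15. HSP17.6C, with 15.5 and 22.0 FPKM in DP, against 0 and 0 in W (adjusted p = 0.0260), was the single call of 8 tested heat shock genes of 16. With quantile scaling NINJA, GASA6 and HSP17.6C were not called (adjusted p = 0.0567, 0.0583 and 0.0528). None of these genes had a read step, and 1 read at the median locus was worth 10.4 and 10.3 FPKM in W1 and W2.

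Few glucosinolate genes were called. CYP83B1, an oxime-metabolising enzyme of indolic glucosinolate synthesis, fell, with 4.46 and 3.16 FPKM in DP, 1 read each, against 126 and 647 in W, from 12 and 62 reads (log2 difference -5.91 ± 0.96 SE, adjusted p = 0.0321; up to 0.148 without DP1, DP2 or W2). It was the single call of 8 tested indolic genes of 16. The median log2 difference of this list was -1.41, against 0.86 over all tested loci. Without W2 it was 1.404 over 5 tested genes, against 0.98 over all tested loci. FMOGS-OX3 and GGP1, of side-chain oxidation and core synthesis in the aliphatic list, rose, with 10.02 to 24.9 FPKM in the DP libraries, against 0 in both W libraries (adjusted p = 0.0319 and 0.0224), among 10 tested genes of 26. GGP1 rests on 3 and 4 reads in DP, its DP mean was below the worth of 3 reads in a W library (58.6 FPKM), and it was not called under voom (adjusted p = 0.427). TGG2, a myrosinase that cleaves glucosinolates, fell, with 0 and 0 FPKM in DP, against 9.79 and 19.4 in W (adjusted p = 0.0339), among 4 tested genes of 12. The W values of TGG2 were 1 and 2 reads. It was 1.37-fold lower in DP with DP at 3 reads, and lost its call without DP1, DP2 or W2. In growth lists, TCP13 and ARGOS rose among 14 tested petal growth genes of 21, with 12.9 to 18.3 FPKM in the DP libraries, against 0 in both W libraries (adjusted p = 0.0261 and 0.0277), and the kinase gene AUR1 fell among 8 tested cell cycle genes of 14, with 0 and 0 FPKM in DP, against 33.4 and 49.9 in W (adjusted p = 0.0281; up to 0.0815 without any 1 library). With quantile scaling FMOGS-OX3, TCP13 and ARGOS were not called (adjusted p = 0.0590, 0.0531 and 0.0563). None of these genes had a read step, and 1 read at the median locus was worth 10.4 and 10.3 FPKM in W1 and W2. Proanthocyanidin, scent, ethylene and defence lists had 0 calls among 2, 2, 12 and 7 tested genes, with EIN3 of ethylene signalling at 21.8 and 17.61 FPKM in DP, against 7.35 and 7.28 in W (adjusted p = 0.603).

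Of 14 genes used in every cell, all tested, 3 rose and 0 fell, against the background of 7.07% rises. ACT2 had 2914 and 2247 FPKM in DP, against 3143 and 2891 in W (log2 difference -0.24, adjusted p = 0.483), and TIP41 had 439 and 376 FPKM in DP, against 323 and 291 in W (log2 difference 0.40, adjusted p = 0.451). UBQ10, a polyubiquitin gene, had 2018 and 1929 FPKM in DP, against 228 and 558 in W (5.02-fold, adjusted p = 0.0404; up to 0.183 without DP1 or DP2). GAPC1 and GAPC2 of glycolysis, whose reads could be split, were 10.3-fold and 3.22-fold higher in DP (adjusted p = 0.0227 and 0.0271; up to 0.0539 without DP1 or W2 and up to 0.0616 without DP1, DP2 or W2).

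**Figure D5:**
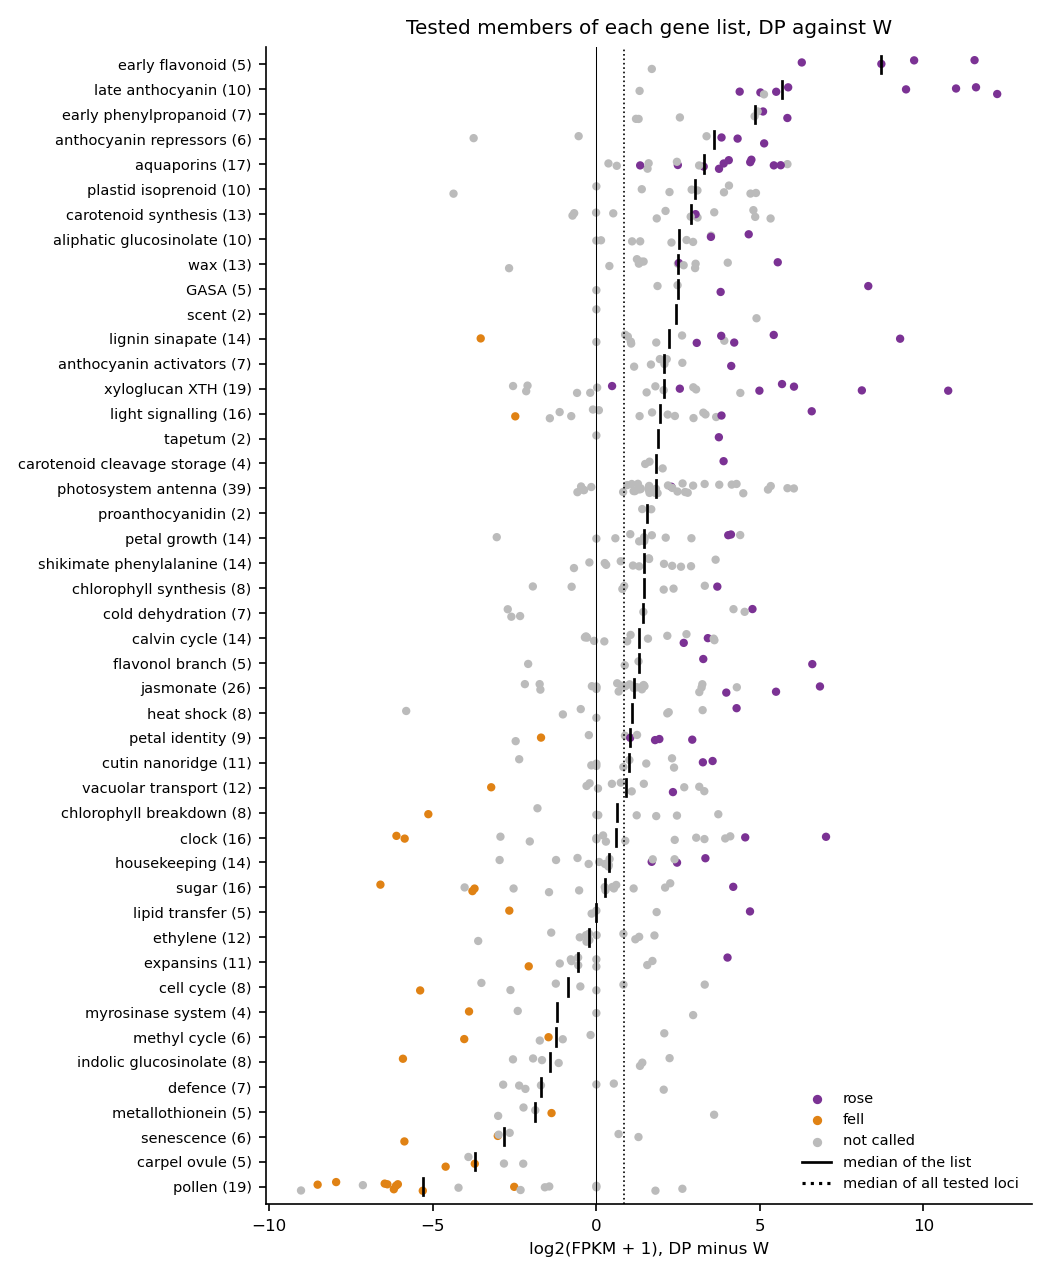
log2 difference of FPKM + 1, DP minus W, of every tested member of the 46 gene lists (number tested in brackets), with called rises in purple, called falls in orange and other members in grey. Early flavonoid and late anthocyanin genes lie at the top and pollen genes at the bottom, with list medians as black bars and the median of all tested loci, 0.86, as a dotted line. Positions of loci listed at 0 in a form depend on the added 1 FPKM.

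Loci without a name in the lists held some of the widest differences. AT3G13400 was among the 5 highest nuclear loci in W, with 325 and 459 FPKM in DP, against 35178 and 35682 in W (log2 difference -6.52, adjusted p = 0.00169), and took 5.12% and 5.83% of the nuclear FPKM of W1 and W2. AT5G45880 had 120 and 184 FPKM in DP, against 16627 and 17575 in W (log2 difference -6.84, adjusted p = 0.00186). Whether AT3G13400 and AT5G45880 mark pollen was not tested, and the pollen share given above covers the pollen list alone. AT1G48750 had 3142 and 1774 FPKM in DP, against 0 and 0 in W (adjusted p = 0.00270). All 3 kept their calls in the 13 alternative fits that could test them.

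The calls were compared after the organelle loci, and then W1, were left out. Of 86 tested organelle loci 0 rose and 5 fell. Without these loci 823 of the 11362 nuclear loci rose and 420 fell, and when nuclear totals were also equalised 719 of 11347 rose (6.34%) and 431 fell (3.80%), with 1128 of 1227 nuclear calls kept. Without W1, with the lone W2 library assumed to vary like the other forms, 826 loci rose (7.43%) and 687 fell (6.18%), and 864 of the 1232 calls were kept. Across nuclear loci, which are not independent replicates, log2 values of DP1 and DP2 correlated at 0.75, those of W1 and W2 at 0.64 and those of a DP with a W library at 0.46 to 0.48. W1 and W2 lay closer to each other than either lay to a DP library.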

How the data were processed

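The measurements are directional RNA-seq libraries of poly(A) RNA from petals of 3 radish forms with 2 libraries each. The deposited table, named by its authors as FPKM, gives 1 column per library over Arabidopsis thaliana loci, the reference named in the series text; per the submitters' processing notes TopHat, Cufflinks, Cuffdiff and DESeq were used, with no versions. The annotation and parameters are not given in the sources used here.

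From these values log2(FPKM + 1) was fitted with limma 3.58.1 (trended variance) in R 4.3.3 over all 6 radish libraries, with DP minus W as the contrast and Benjamini-Hochberg adjustment over 11448 loci. Loci were kept where the mean of a form was at least 1 FPKM. Whole reads were recovered where low FPKM values fell on multiples of 1 step, within 0.02 plus 0.002 per read, at 4567 of 6121 loci examined. A fold against a form at 0 is given only there, against 3 reads in 1 library. It covers counting error of the form at 0 only, and takes the mean of the other form as listed. The depth elsewhere is unknown. The fit was tested on simulated data.

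The gene lists and members were chosen with earlier results of these data known. Genes named were pathway genes, up to 4 called members of a list in each direction, the 15 widest rises and falls without overlap and the 5 highest loci of each form; of loci with no name in the lists only a few of these are printed. Other called list members and some uncalled genes were named after their values were seen. Replicate numbers did not pair libraries: same-numbered DP and W libraries correlated at 0.017 in their deviations from form means.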

Additional observations from a re-analysis of the deposited data

How the results depend on the processing

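The number of loci that rose, 809 with the main settings, was 1297 with a pseudocount of 0.1, 335 with quantile scaling, 216 under voom on recovered reads and 337 under voom with the depth of the FPKM scale, an alternative added after seeing the data. The number that fell, 423, was 712 under voom on recovered reads. Leaving out 1 library gave 764 to 2236 rises and 414 to 687 falls, the most rises without DP1 and 1838 without DP2. With the replicate number as a replicate block 43 rose and 59 fell; the numbers did not pair the libraries. Of calls, rises made up 65.7% with the main settings, 75.7% with a pseudocount of 0.1, 52.3% with quantile scaling, 53.6% to 84.4% without 1 library, 23.3% under voom and 39.8% under voom with the depth of the FPKM scale. RBCS1B turned to a log2 difference of -0.30 under voom (adjusted p = 0.86). Of 132 named called loci 77 kept their calls in every fit without 1 library and 35 in every alternative that could test them. The replicate block lost 92 of these calls, quantile scaling 38, no variance trend 25, DP and W libraries alone 20, organelle removal with equalised totals 9 of 128 and a pseudocount of 0.1 lost 5. Voom on recovered reads lost 10 of the 41 it could test and reversed 1. Voom with the depth of the FPKM scale lost 12 of 41. The causes were not tested. At the depth of W, loci under the worth of about 3 reads could not be told from 0.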
